A study of Mus musculus with 4 samples.

Results

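The nuclear-encoded subunits of the mitochondrial respiratory chain and ATP synthase were followed in IMS32 cells across 4 culture conditions. Members were chosen by name: a gene was included when the array named its probe with a symbol beginning with Ndufa, Ndufb, Ndufc, Ndufs, Ndufv, Uqcr, Cox4i, Cox5, Cox6, Cox7, Cox8 or Atp5, and the assembly factors named Ndufaf were left out. This rule took 82 genes of the 31093 gene names on the array, represented by 112 probes. They comprised 38 genes of complex I, 8 of complex III, 18 of complex IV and 18 of complex V. A few names that the rule takes are not textbook subunits of the complex they were counted with, namely Atp5s, Atp5sl, Ndufa4l2 and the pseudogene entry Atp5c1-ps, and Ndufa4 is now regarded as a component of complex IV.

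The respiratory chain is a series of protein complexes in the inner mitochondrial membrane. Complex I takes electrons from NADH, complex II takes them from succinate, complex III passes them to cytochrome c, and complex IV passes them on to oxygen. Complexes I, III and IV pump protons across the membrane, and complex V, the ATP synthase, uses the returning protons to make ATP. Pyruvate enters this system after its oxidation in the mitochondrial matrix, so the supply of glucose and pyruvate in the medium bears on how much substrate the chain receives. Most subunits are encoded in the nucleus, and a small set of core subunits is encoded by mitochondrial DNA.

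IMS32 is a line of spontaneously immortalized mouse Schwann cells, the glia that ensheath peripheral axons. The cells were kept for 1 h in medium with 5% serum under 4 conditions: 5 mM glucose with 1 mM pyruvate [Glc 5 mM/Pyr (+)], 5 mM glucose without pyruvate [Glc 5 mM/Pyr (−)], 15 mM glucose with 1 mM pyruvate [Glc 15 mM/Pyr (+)] and 15 mM glucose without pyruvate [Glc 15 mM/Pyr (−)]. RNA of each condition was hybridised to 1 one-colour Agilent mouse array, so no condition was replicated, precision is limited by how few arrays there are, and a difference between 2 arrays carries no p-value. The design asks what removal of pyruvate did at each glucose concentration, and what the higher glucose concentration did with and without pyruvate. The pyruvate and glucose comparisons share arrays, so their values are not independent of each other.

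All values below are levels on a log2 scale, the scanner's processed signal relative to the 75th percentile of the same array, and a gene is the mean of its probes. A gene counted as measured when at least 1 of its probes was well above background, by the scanner's own flag, on all 4 arrays. The 4 arrays were similar in quality, with 28473 to 30347 probes well above background and no saturated spots. The 75th percentile of the processed intensity ran from 1597 to 1788. It was lower on both 15 mM glucose arrays, at 1597 and 1632, than on both 5 mM arrays, at 1740 and 1788, and its part in the glucose differences below was not tested. All 18 Schwann cell markers of a list that includes Sox10, S100b and Ngfr were well above background on every array, although Erbb3, at an intensity of 15.6 to 22.2, was dim. Summed marker intensities ran from 219896 to 251904 for the Schwann list, from 119132 to 126089 for 8 fibroblast genes (7 measured on all arrays), from 10854 to 15870 for 6 macrophage genes (all measured), from 7730 to 11774 for 7 neuronal genes (5 measured, Nefm not above background on any array), and from 4259 to 5740 for 5 endothelial genes (3 measured, Cdh5 not above background on any array). In bulk RNA of this kind, a change in the number of cells of a type and a change in RNA per cell cannot be told apart.

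Of the 82 genes, 80 were measured. The exceptions were Cox8b, the heart and skeletal muscle form of subunit 8 of complex IV, and Cox8c, its testis form, which were not well above background on any array, with intensities from 2.53 to 6.66 for Cox8b. The measured genes were mostly brightly detected: 56 of 80, or 70% of them, lay among the brightest 10% of the 21717 measured genes on the array. Because bright genes as a class did not behave like all genes in these arrays, the brightest 10% (2172 genes) is given beside the main medians and counts. Of these 2172 genes, 1 passed 1.5-fold for the removal of pyruvate at 5 mM glucose, 12 at 15 mM, 0 for the higher glucose with pyruvate and 11 without it, so few bright genes of any kind differed by that much.

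The probes on which single-gene statements turn are printed so that each value can be tied to the stretch of transcript it reports. Each is the array's own 60-base probe, 5′ to 3′, in lower case with nothing capitalised. Uqcrc2 lies at chr7:127802599-127802658 on the plus strand of mm9, by the array's annotation, and was printed on 10 spots of every array. The Uqcrc1 and Cox7b2 probes have no position in that annotation. The 3 Ndufv3 probes lie on chromosome 17, plus strand of mm9, at chr17:31663758-31663817 (upstream), chr17:31665148-31665207 (middle) and chr17:31668209-31668268 (downstream), and are shown because their differences between arrays were unlike. No gene model of mm9 was used, so the exon of each probe is not given.
Uqcrc1: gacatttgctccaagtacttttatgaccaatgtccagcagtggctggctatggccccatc
Uqcrc2: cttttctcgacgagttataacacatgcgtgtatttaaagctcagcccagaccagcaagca
Cox7b2: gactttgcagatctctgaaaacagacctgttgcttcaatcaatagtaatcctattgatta
Ndufv3 upstream: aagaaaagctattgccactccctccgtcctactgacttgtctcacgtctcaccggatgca
Ndufv3 middle: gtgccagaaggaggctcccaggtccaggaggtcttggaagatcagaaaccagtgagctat
Ndufv3 downstream: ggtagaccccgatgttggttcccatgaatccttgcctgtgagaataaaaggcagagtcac

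Many respiratory chain genes share a promoter element bound by NRF1, a transcription factor known for its role in mitochondrial gene expression. RefSeq promoter windows, from 250 bases before to 50 bases after the start on GRCm38.p6, were given for 67 of the 82 genes, in 73 windows. The NRF1 element GCGCATGCG, searched on both strands with overlapping matches merged, was present in 8 of the 73 windows (10.96%), against 1.75% of all 32851 windows. The GABPA element CCGGAAG was present in 14 windows (19.2%, against 8.86% of all windows) and the YY1 element AAGATGGCG in 9 (12.3%, against 1.40%). A match describes the letters only. The 30 bases around each NRF1 match are shown for 1 gene of each complex, on the gene's own strand with the matched element in capitals, including the overlapping match on the other strand. They lie at chr17:56717692-56717721 (plus strand) for Ndufa11, at chr10:80406807-80406836 (minus strand) for Uqcr11, at chr5:115349101-115349130 (minus strand) for Cox6a1 and at chr15:102671070-102671099 (minus strand) for Atp5g2.
Ndufa11: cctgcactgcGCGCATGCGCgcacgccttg
Uqcr11: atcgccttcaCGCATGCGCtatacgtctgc
Cox6a1: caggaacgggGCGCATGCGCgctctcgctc
Atp5g2: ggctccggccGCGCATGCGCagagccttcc
The other genes with a match were Ndufa8, Uqcrc1, Atp5k and Atp5l. The 8 genes were not alike in their values: on the removal of pyruvate at 15 mM glucose, Ndufa11 was higher by 0.15 and Uqcrc1 lower, at -0.25.

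Removal of pyruvate at 5 mM glucose went with small differences in the respiratory chain genes. The median difference, Pyr (−) minus Pyr (+), was 0.02 over the 80 genes (-0.15 with the spike-in control probes as reference, where all genes were at -0.19), against -0.02 over all genes and 0.01 over the brightest 10%. In all, 50 of the 80 (62.5%) were higher without pyruvate, where 43.7% of all genes and 55.9% of the brightest 10% were. No respiratory chain gene differed by 1.5-fold or by 2-fold in either direction, where 2.56% and 0.806% of all genes did. The medians were 0.03 for complex I, 0.06 for complex III, -0.00065 for complex IV and 0.01 for complex V.

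Removal of pyruvate at 15 mM glucose gave higher values for most members. The median difference was 0.11, against 0.03 over all genes and 0.04 over the brightest 10%, and 67 of the 80 genes (83.75%) were higher without pyruvate, where 56.9% of all genes and 65.2% of the brightest 10% were. The complexes were close to each other, with medians of 0.11 for complex I, 0.12 for complex III, 0.11 for complex IV and 0.10 for complex V. A single gene, Cox7b2, passed 1.5-fold and also 2-fold, where 6.51% and 2.01% of all genes passed them. A difference of 0.11 on the log2 scale is small, and for any 1 gene it should be read against the spread between spots given below.

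**Figure D1:**
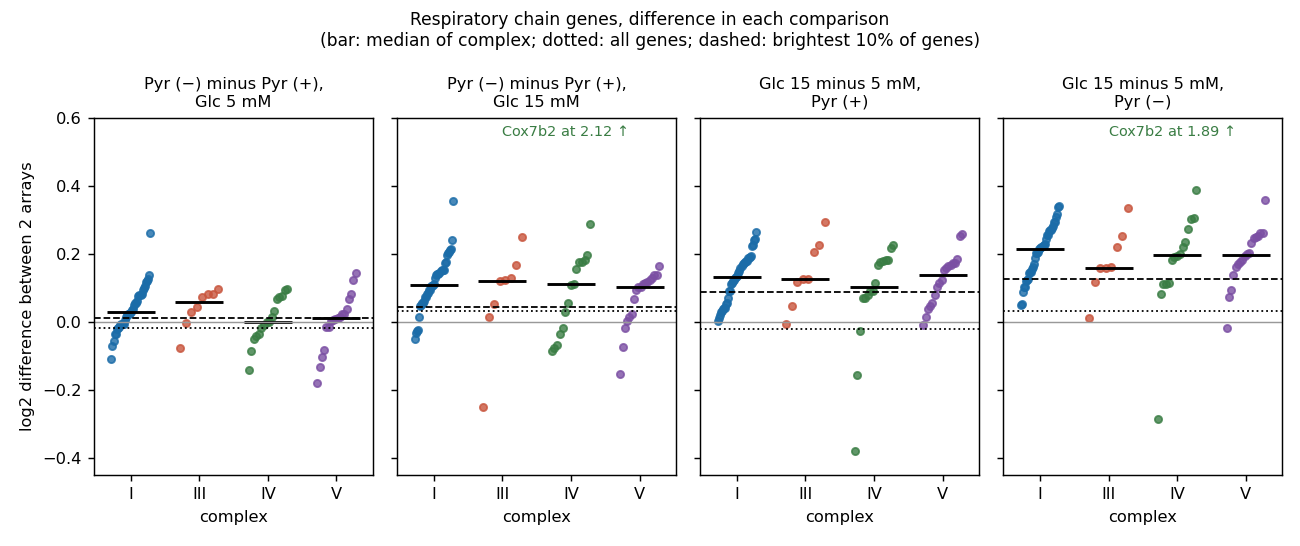
Each point is 1 respiratory chain gene; the vertical axis is the log2 difference between 2 arrays, the horizontal axis the complex, and each panel 1 of the 4 comparisons. Bars are the medians of the complexes, the dotted line is the median of all 21717 genes and the dashed line that of the brightest 10%; Cox7b2, at 2.12 and 1.89, lies beyond the axis in the 2 panels that name it. With the main scaling, most points lie near 0 in the first panel and above it in the other 3.

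The higher glucose concentration, with pyruvate present, went with a median difference (15 mM minus 5 mM) of 0.13 over the 80 genes, against -0.02 over all genes, and with the spike-in control probes as reference the signs turned, to -0.22 against -0.37. The brightest 10% of genes had a median of 0.09, so much of the distance from all genes was shared with other bright genes. In all, 75 of the 80 (93.75%) were higher at 15 mM, where 44.3% of all genes and 83.9% of the brightest 10% were. None differed by 1.5-fold or 2-fold, where 2.82% and 0.787% of all genes did. Complexes I, III, IV and V had medians of 0.13, 0.13, 0.10 and 0.14. Every one of the 38 complex I genes was higher at 15 mM under the main scaling, down to 0.0014 for Ndufs1, and the exceptions elsewhere were Uqcrc2 (-0.0068), Cox4i2 (-0.16), Cox6a2 (-0.03), Cox7b2 (-0.38) and Atp5f1 (-0.0081).

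Without pyruvate, the higher glucose concentration went with a median of 0.20 over the 80 genes, against 0.03 over all genes and 0.12 over the brightest 10%, and of 0.01 against -0.16 over all genes with the spike-in probes. In all, 78 of the 80 (97.5%) were higher at 15 mM, where 56.1% of all genes and 82.9% of the brightest 10% were. The exceptions were Atp5b, at -0.02, and Cox4i2, at -0.29. Cox7b2 was again the only member past 1.5-fold or 2-fold, where 6.89% and 2.2% of all genes passed them. The medians of complexes I, III, IV and V were 0.21, 0.16, 0.20 and 0.20.

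Put together by array, 69 of the 80 genes (86.25%) had both 15 mM arrays above both 5 mM arrays, where 22.2% of all genes and 65.4% of the brightest 10% did. The highest of the 4 levels was on [Glc 15 mM/Pyr (−)] for 67 of the 80 genes (83.75%), against 38.5% of all genes and 62.7% of the brightest 10%. These counts rest on 1 array per condition, and they depended on how the arrays were put on a common scale. With quantile normalization the count of genes with both 15 mM arrays on top was 47 of 80 (58.75%, against 21.9% of all genes and 24.2% of the brightest 10%). It was 46 with cyclic loess (57.5%, against 21.1% and 25%). With each array centred on its brightest 10% of genes, a setting chosen after seeing the data, it was 32 (40%, against 4.84% and 16.0%). It was 0 with the spike-in control probes as reference (0%, against 0.433% of all genes and 0% of the brightest 10%). Set against the median of all genes under the same setting, the member median was higher by 0.0046 to 0.04 for the removal of pyruvate at 5 mM, by 0.06 to 0.14 at 15 mM, and by 0.06 to 0.16 and 0.08 to 0.17 for the higher glucose with and without pyruvate, over the main setting and its alternatives. Settings that only shift a whole array, such as the spike-in reference, the deposited table and the centring, could not change this distance. Against the brightest 10%, the distances under the main setting were 0.01, 0.07, 0.04 and 0.08 in the same order.

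**Figure D2:**
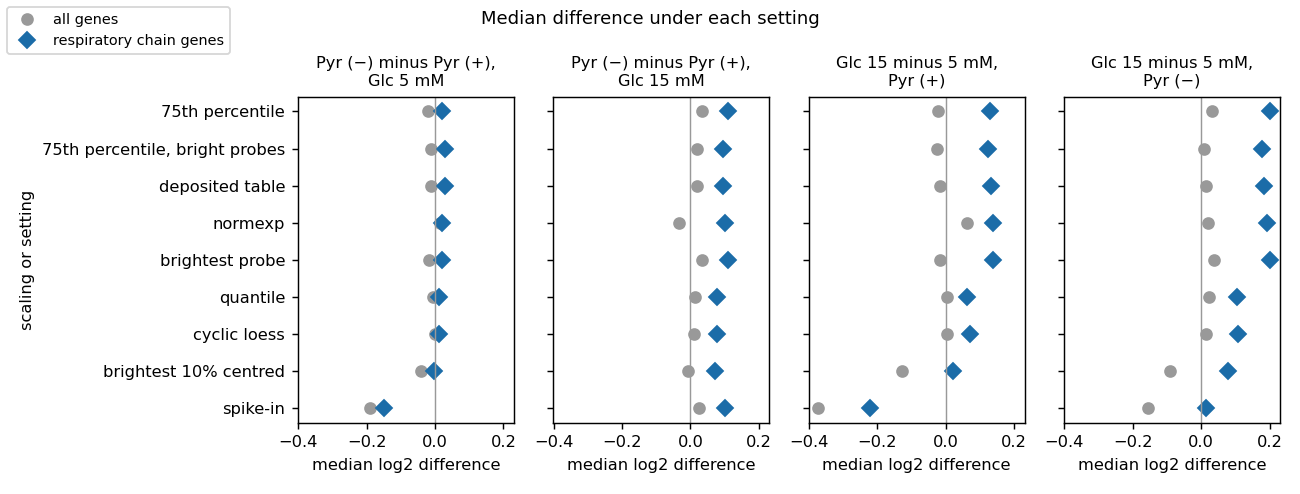
Median log2 difference (horizontal axis) over the 80 respiratory chain genes (diamonds) and over all genes (circles) under each scaling or setting (vertical axis), in the 4 comparisons. The diamonds lie to the right of the circles in every row of the last 3 panels, while both shift to the left with the spike-in probes in the glucose comparisons, where the diamonds are at -0.22 and 0.01. Rows that only shift a whole array keep the same distance between diamond and circle by construction.

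The only measure of error within an array came from probes printed on many spots. Uqcrc2, a core subunit of complex III, was the member so printed, on 10 spots of each array. Its level was 4.52 (SD 0.035 over spots) on [Glc 5 mM/Pyr (+)], 4.52 (SD 0.040) on [Glc 5 mM/Pyr (−)], 4.51 (SD 0.026) on [Glc 15 mM/Pyr (+)] and 4.63 (SD 0.026) on [Glc 15 mM/Pyr (−)]. With the main scaling, Uqcrc2 was thus level on 3 arrays and higher by 0.12 on the last. Over the settings tried, its difference for the higher glucose ran from -0.36 to -0.0017 with pyruvate and from -0.07 to 0.12 without. That for the removal of pyruvate at 15 mM ran from 0.08 to 0.12. Over 22 probes with repeated spots that were at least as bright as the lower quartile of member probes (an intensity of 16238), the median SD between spots was 0.045 to 0.053 on the 4 arrays. For a probe on 1 spot, a difference between 2 arrays then has an SD of 0.07. This covers spot error only, and not the spread between cultures, labelling reactions or arrays, for which the design holds no estimate. Differences beyond 0.07 in size were found for 31 of the 80 genes (38.75%) on the removal of pyruvate at 5 mM glucose, against 57.8% of all genes and 30.7% of the brightest 10%. At 15 mM they were found for 58 (72.5%, against 72.1% and 56.4%). On the higher glucose they were found for 59 with pyruvate (73.75%, against 64.5% and 62.5%) and for 76 without it (95%, against 75.9% and 75.2%). Because 0.07 is an SD, spot error alone takes some differences beyond it. It was set from bright probes, while all genes include many dimmer probes, whose spots vary more, and some members are dim too.

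The limma test, fitted to all probes with pyruvate and glucose as additive terms and 1 residual degree of freedom, called 0 of 31278 probes for either term after Benjamini-Hochberg adjustment (0%), and so none of the 110 member probes in it. The residual of this fit holds any pyruvate difference that is unlike at the glucose concentrations, so such a difference counted as noise. The absence of calls therefore does not show an absence of change. At an unadjusted p under 0.05, limma took 1078 probes for pyruvate (3.45%) and 1497 for glucose (4.79%), and none of these was a member probe. The lowest limma adjusted p of a member probe was 0.985 for pyruvate, shared by 47 member probes, and 0.772 for glucose, shared by 85.

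Complex I begins with the catalytic core, the subunits that carry the flavin and the iron-sulfur clusters from NADH to ubiquinone. The 7 nuclear-encoded core subunits were all measured, with medians of 0.02 and 0.05 for the removal of pyruvate at 5 and 15 mM glucose, and of 0.13 and 0.17 for the higher glucose with and without pyruvate. Ndufv1, which holds the NADH-binding site, had levels of 4.89, 4.95, 5.05 and 5.00 in the order in which the conditions are introduced above, an order kept for every list of 4 values below. It was lower without pyruvate at 15 mM, by -0.05, the lowest value in complex I for that comparison. Ndufs1, the largest iron-sulfur subunit, was flat, with 4.08, 4.01, 4.08 and 4.06.

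The other core subunits named here did not share 1 pattern. Ndufs8, an iron-sulfur subunit, had 2.47, 2.46, 2.59 and 2.80, so that [Glc 15 mM/Pyr (−)] stood apart, 0.21 above the other 15 mM array and 0.34 above the 5 mM array without pyruvate. Ndufv2, which holds an iron-sulfur cluster, was higher without pyruvate by 0.08 at 5 mM and by 0.14 at 15 mM, Ndufs3 by 0.08 and 0.09, and Ndufs7 by 0.01 and 0.05.

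The accessory subunits surround the core and serve in its assembly and stability. The 29 of them, Ndufa4 and Ndufa4l2 not counted, had medians of 0.03 and 0.11 for the removal of pyruvate at 5 and 15 mM glucose, and of 0.14 and 0.22 for the higher glucose with and without pyruvate. At 15 mM glucose, 28 of the 29 were higher without pyruvate, where 56.9% of all genes and 65.2% of the brightest 10% were, the exception being Ndufs5 at -0.03. At 5 mM, 18 of the 29 were, where 43.7% and 55.9% were. The highest of them at 15 mM was Ndufa6, with levels of 3.32, 3.31, 3.41 and 3.65, a difference of 0.24. Ndufa10 was the lowest at 5 mM, at -0.11, and Ndufa13, also known as GRIM-19, the highest, at 0.14.

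Ndufa4l2, a gene known for its induction by hypoxia, had the highest complex I values for the removal of pyruvate at both glucose concentrations, 0.26 at 5 mM and 0.36 at 15 mM. Its signal was dim, with intensities of 70.0, 81.7, 63.8 and 83.4, and both Pyr (−) arrays lay above both Pyr (+) arrays. Its value at 15 mM ran from 0.10 to 0.36 over the settings tried. Ndufa4 had levels of 3.99, 4.05, 4.11 and 4.31, with differences of 0.05 at 5 mM and 0.21 at 15 mM.

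Ndufv3 was the gene whose probes differed most among themselves, by 0.46 for the higher glucose with pyruvate. The downstream probe, the bright one, had levels of 4.53, 4.60, 4.71 and 4.83, and was higher at 15 mM by 0.18 with pyruvate and 0.23 without. The middle probe, with intensities of 488 to 528, was higher by 0.14 and 0.08. The upstream probe, with intensities of 156 to 222, was lower by -0.28 and -0.05. The mean over the 3 probes, 0.01 with pyruvate, therefore stands for none of them.

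Complex III oxidises ubiquinol and reduces cytochrome c, and its measured members here are the pair of core proteins, the Rieske protein and 5 small subunits. Uqcrc1, the first core protein, had values unlike the rest of its complex. With the main scaling its levels were 2.38, 2.41, 2.67 and 2.42, so that [Glc 15 mM/Pyr (+)] alone stood above the others. This gave -0.25 for the removal of pyruvate at 15 mM and 0.29 for the higher glucose with pyruvate, the lowest and the highest values of complex III in those comparisons. The first of these values lay between -0.29 and -0.25 under every setting tried. The second ran from -0.06 to 0.30, so its sign turned.

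The Rieske iron-sulfur protein Uqcrfs1 had levels of 3.17, 3.09, 3.22 and 3.35, and a difference of 0.13 for the removal of pyruvate at 15 mM. Uqcrb, a small subunit near the ubiquinone site, had 3.50, 3.54, 3.62 and 3.88, the highest complex III difference in that comparison at 0.25. Uqcr10 followed at 0.17, Uqcr11 was at 0.12, Uqcrh, the hinge protein that helps to dock cytochrome c1, at 0.05 and Uqcrq at 0.01. For 5 of the 8 genes the array's annotation places probes on several chromosomes, and such probes may also detect related sequences.

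**Figure D3:**
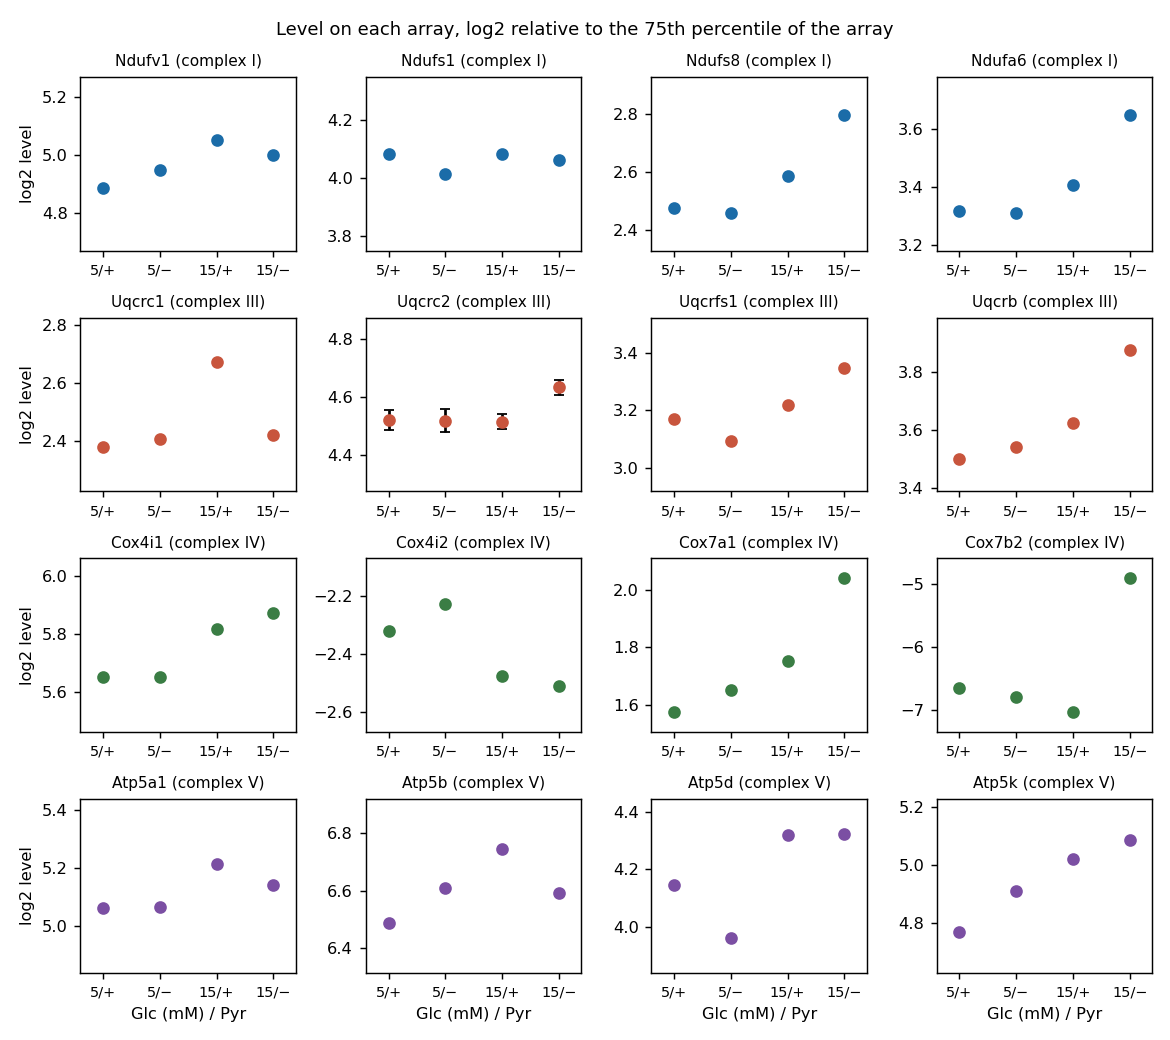
Level of 16 member genes, 4 per complex, on each of the 4 arrays (horizontal axis, glucose in mM and presence of pyruvate). The vertical axis is the log2 level relative to the array's 75th percentile, its range differs between panels, and error bars on Uqcrc2 are the SD over 10 spots of the same array. Uqcrc1 stands highest on [Glc 15 mM/Pyr (+)] at 2.67, while Ndufs8, Ndufa6, Uqcrb, Cox7a1 and Cox7b2 stand highest on [Glc 15 mM/Pyr (−)].

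Complex IV reduces oxygen at a core made by mitochondrial DNA, surrounded by nuclear-encoded subunits that often come in tissue-specific forms. The ubiquitous subunits did not share 1 value for pyruvate. Cox4i1, the common form of subunit 4, had levels of 5.65, 5.65, 5.82 and 5.87, with both 15 mM arrays above both 5 mM arrays and 0.05 between the 15 mM arrays. Cox5a had 6.18, 6.18, 6.36 and 6.29, and Cox5b 5.19, 5.21, 5.26 and 5.29. Cox6a1, the non-muscle form of subunit 6a, was lower without pyruvate at 15 mM by -0.08, whereas Cox6b1, Cox6c and Cox7c were higher by 0.18, 0.16 and 0.19.

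Among the alternative forms, Cox4i2, the oxygen-responsive form of subunit 4 known from lung, was the member that stood against the rest on glucose. Its levels were -2.32, -2.23, -2.48 and -2.51, both 15 mM arrays lying below both 5 mM arrays, at -0.16 with pyruvate and -0.29 without. The latter value lay between -0.47 and -0.22 over all settings. Cox7a1, the heart and muscle form of subunit 7a, had levels of 1.57, 1.65, 1.75 and 2.04. Its difference of 0.29 for the removal of pyruvate at 15 mM was the highest of complex IV after Cox7b2, and lay between 0.25 and 0.29 over all settings, while the common form Cox7a2 was at 0.11. Cox6a2, the muscle form of subunit 6a, was at 0.18 and Cox6b2, the testis form of subunit 6b, at -0.09. The other forms, Cox7b, Cox8a and Cox7a2l, a gene linked to the joining of complexes III and IV into supercomplexes, were at 0.18, 0.11 and -0.02. The 3 Cox7a2l probes differed by 0.25 in that comparison, and 1 of them lies on a different chromosome from the other two.

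Cox7b2, a testis form of subunit 7b, was the only member past 2-fold in any comparison. Its processed intensities were 17.7, 15.6, 12.2 and 54.3, well above background by the scanner's flag on every array but among the dimmest of the members. [Glc 15 mM/Pyr (−)] stood apart from the other three, with a difference of 2.12 (4.36-fold) for the removal of pyruvate at 15 mM and of 1.89 (3.70-fold) for the higher glucose without pyruvate, while the removal of pyruvate at 5 mM gave -0.14. Over 55 probes with repeated spots in the same range of intensity, the median SD between spots was 0.21 to 0.25, a spread (SD) of 0.32 for a difference. Cox7b2 was on a single spot per array. With background corrected by normexp, which here added an offset of 50 to every intensity, the difference at 15 mM was 0.56, under 1.5-fold. Such an offset shrinks the differences of any probe this dim.

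Complex V consists of the catalytic F1 head, the membrane c ring that turns with the proton flow, and the peripheral stalk that holds the head still. The 5 head genes had medians of 0.0044 and 0.0033 for the removal of pyruvate at 5 and 15 mM glucose, and of 0.17 and 0.20 for the higher glucose with and without pyruvate. Atp5b, the catalytic beta subunit, had levels of 6.49, 6.61, 6.74 and 6.59. It was higher without pyruvate at 5 mM, by 0.12, and lower at 15 mM, by -0.15, the lowest complex V value there. The value at 15 mM lay between -0.19 and -0.14 over all settings, whereas that at 5 mM ran from -0.05 to 0.13, so its sign turned. Atp5a1, the alpha subunit, had 5.06, 5.07, 5.22 and 5.14, a difference of -0.08 at 15 mM. Atp5c1, the gamma subunit of the central shaft, had the opposite sign, with intensities of 33698, 32794, 32840 and 36501 and a difference of 0.13.

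Atp5d, the delta subunit of the head, had levels of 4.15, 3.96, 4.32 and 4.32. It had the lowest complex V value for the removal of pyruvate at 5 mM, at -0.18, 0.0033 at 15 mM, and the highest for the higher glucose without pyruvate, at 0.36. Atp5e, the epsilon subunit, was higher without pyruvate by 0.08 at 5 mM and 0.11 at 15 mM.

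The c ring is coded by 3 genes that yield the same mature protein. For the removal of pyruvate at 15 mM glucose, Atp5g1 was at -0.02, Atp5g2 at 0.10 and Atp5g3 at 0.14, while on the higher glucose without pyruvate they were at 0.16, 0.25 and 0.18. The 4 peripheral stalk genes were all higher without pyruvate at 15 mM, from 0.09 for Atp5h to 0.14 for Atp5f1, with a median of 0.12. Atp5k, a membrane subunit, had the highest complex V value at 5 mM, with levels of 4.77, 4.91, 5.02 and 5.09 and a difference of 0.14. That difference ran from -0.03 to 0.15 over the settings tried, so its sign turned. The array's annotation places both Atp5k probes on chromosome 8, whereas its promoter window lies on chromosome 5. Likewise, both Atp5g2 probes are placed on 17_random, an unplaced part of chromosome 17, whereas the Atp5g2 promoter window lies on chromosome 15. For 3 complex V genes the annotation places probes on several chromosomes, and such probes may also detect related sequences. The pseudogene entry Atp5c1-ps had the highest value at 15 mM, 0.17, and its probe may share sequence with Atp5c1. The array's annotation places it at chr13:77808693-77808752, close to both Atp5c1 probes, at chr13:77808194-77808253 and chr13:77808314-77808373, all on the minus strand of mm9. Their values therefore cannot be read as those of separate genes.

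The other genes of the pathway were taken from lists of complex II, cytochrome c, assembly factors and regulators. None of those measured on all arrays differed by 1.5-fold in any comparison. The 4 genes of complex II had a median of 0.09 for the removal of pyruvate at 15 mM and all were higher, from 0.03 for Sdha, the flavoprotein, to 0.16 for Sdhd, a membrane anchor. On the higher glucose their medians were 0.08 with pyruvate and 0.19 without. Cycs, cytochrome c itself, differed by 0.39 for the removal of pyruvate at 15 mM and by 0.0054 at 5 mM as the mean of 3 probes. The probes were unlike: at 15 mM the bright ones gave 0.17 and 0.27, and a dim one, with intensities of 71.7 to 121, gave 0.72. Cyc1, cytochrome c1 of complex III, was at -0.20 and -0.10 in these comparisons. Cyct, the testis form of cytochrome c, was well above background on 2 of the 4 arrays.

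The assembly factors build the complexes without remaining in them. For the removal of pyruvate at 15 mM glucose, 11 of 13 complex I factors, 4 of 5 measured complex III factors, 15 of 19 measured complex IV factors and all 4 factors of complex V, among them the inhibitor Atpif1, were higher, where 56.9% of all genes and 65.2% of the brightest 10% were. Their medians were 0.12, 0.11, 0.11 and 0.12, beside 0.11 for the subunits, 0.03 for all genes and 0.04 for the brightest 10%. The extremes were Timmdc1 (0.25) and Ndufaf5 (-0.38) for complex I, Uqcc1 (0.23) and Uqcc3 (-0.0061) for complex III, Taco1 (0.28) and Lrpprc (-0.18) for complex IV, and Atpaf2 (0.15) and Atpaf1 (0.10) for complex V. The Ndufaf5 value is the mean of a dim probe, at -0.81 with intensities of 14.9 to 29.2, and a brighter one, at 0.05. The 3 Timmdc1 probes gave 0.13, 0.16 and, on the dimmest, 0.44. On the higher glucose with pyruvate, the medians of these lists, at -0.02, 0.04, 0.05 and 0.0019, were below the 0.13 of the subunits. Lyrm7 and Pet100 were not well above background on any array.

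The 12 regulators, transcription factors and coactivators known to act on respiratory chain genes, had medians near 0. They were -0.01 and -0.0019 for the removal of pyruvate at 5 and 15 mM, and -0.05 and -0.0094 for the higher glucose with and without pyruvate. For the removal of pyruvate at 15 mM, Tfb1m, a methyltransferase of mitochondrial ribosomal RNA, was highest at 0.22, and Ppargc1b, a coactivator of mitochondrial biogenesis, lowest at -0.21. Nrf1 was at 0.25 for the removal of pyruvate at 5 mM and at 0.00027 at 15 mM, as the mean of 3 probes. At 5 mM the dimmer probes, with intensities of 167 to 252, gave 0.31 and 0.32, and the bright one gave 0.10. The 13 subunits encoded by mitochondrial DNA matched no probe name and were not analysed here.

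**Figure D4:**
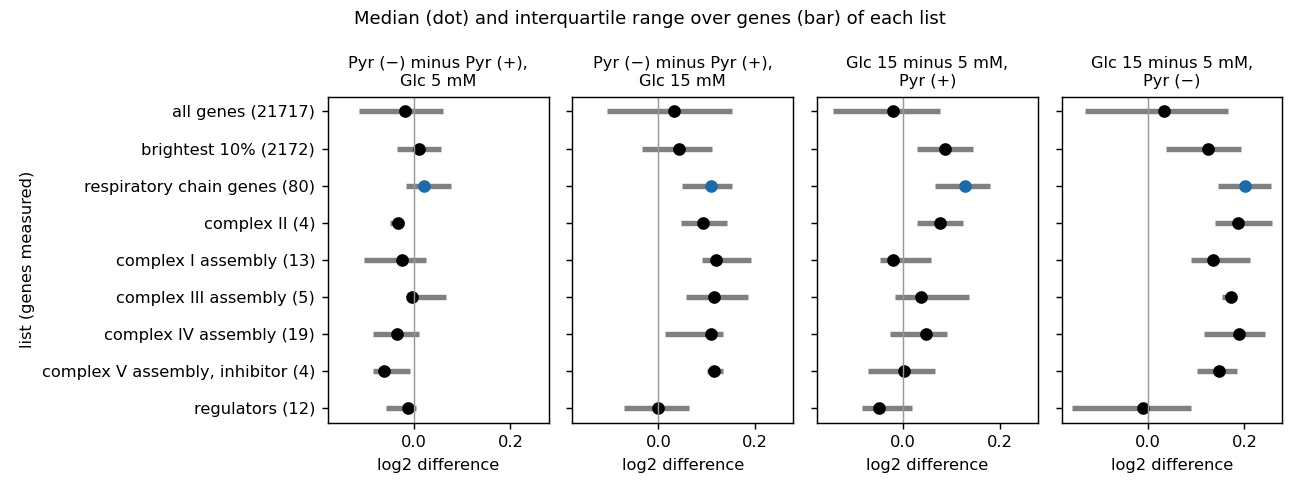
Median log2 difference (dot) and interquartile range over genes (bar) of each list (vertical axis, with the number of genes measured) in the 4 comparisons (horizontal axis). The bars show the spread between genes and not an error between replicates. For the removal of pyruvate at 15 mM glucose the subunits and the assembly lists lie near 0.11, and the regulators lie near 0.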

How the data were processed

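RNA from IMS32 cells in 4 conditions was hybridised to 1 Agilent one-colour mouse array each. Per the file headers, the authors extracted spots with Agilent Feature Extraction 11.5.1.1, and the deposited scanner files hold processed intensities, background-subtracted by that software, with other flags for spots that are well above background, saturated or outliers. The deposited value table holds each array's processed signal divided by 1 constant per array, a ratio; the authors used GeneSpring GX, whose settings are not given in the sources used here. Its medians and direction were checked against the scanner values.

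Outlier spots and control probes were left out, repeated spots of a probe were averaged, and log2 intensities were set relative to each array's 75th percentile. Probes of a gene that were well above background on all 4 arrays were averaged. Differences are Pyr (−) minus Pyr (+) and 15 mM minus 5 mM glucose, and folds of 1.5 and 2 replaced a test. limma 3.58.1 in R 4.3.3 was fitted to every probe that passed the background flag on any array, with additive terms, and was tested on simulated data. Other steps used Python 3.11.15, pandas 2.3.3, numpy 2.4.6 and matplotlib 3.10.9. Symbols of all 82 genes were matched to RefSeq. Named genes were the core subunits, the extremes of each complex and comparison, the isoforms, members past 1.5-fold or not detected, the list extremes, and genes whose probes differed by over 0.5, of which there was none; Ndufv3 was added after its values were seen. The members and all lists were chosen with earlier results of these data known. Alternatives changed the scaling, background correction, filter, choice of probes and members. Some genes that the naming rule covers are not reported here.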

Additional observations from a re-analysis of the deposited data

Results flagged for a closer look

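Cox7b2 differed by 2.12 on the log2 scale for the removal of pyruvate at 15 mM glucose and by -0.14 at 5 mM glucose. The value at 15 mM ran from 0.56, with normexp and its offset of 50, to 2.12 over the settings tried. That at 5 mM ran from -0.31 to 0.06, so its sign turned, and it lay within the spot spread of 0.32 for probes as dim as this one. Each value comes from 1 pair of arrays, and the difference between the glucose concentrations was not tested.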

How the results depend on the processing

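With 1 array per condition, no setting could be tested by leaving out an array, and the depth of signal limits the dim members most. No paired analysis was possible because each condition had 1 array. The median for the removal of pyruvate at 15 mM glucose stayed between 0.07 and 0.11 over all settings. The median for glucose without pyruvate was 0.105 with quantile normalization, 0.108 with cyclic loess, 0.014 with the spike-in probes and 0.079 when centred on the brightest 10% of genes, a setting chosen after seeing the data. That for glucose with pyruvate was -0.223 with the spike-in probes and 0.021 with that centring, and that for pyruvate at 5 mM glucose was -0.148 with the spike-in probes. The spike-in probes moved the medians of all genes to -0.189, 0.026, -0.373 and -0.156 for pyruvate at 5 and 15 mM and glucose with and without pyruvate. Members with both 15 mM arrays above both 5 mM arrays numbered 0 with the spike-in probes (0%, against 0.433% of all genes). They numbered 32 with the centring (40%, against 4.84% of all genes). With the spike-in probes, 1 member gene passed 1.5-fold for glucose with pyruvate, where the median of all genes was itself at -0.373. Under the main setting 2.82% of all genes passed it, and their share with the spike-in probes is not given here. With that reference limma made 24 pyruvate and 56 glucose calls among all 31278 probes, and how many were member probes is not given here. With normexp, 0 genes passed 1.5-fold or 2-fold for pyruvate at 15 mM or 2-fold for glucose without pyruvate. With no filter on dim probes, 2 member genes passed 1.5-fold for pyruvate at 5 mM and at 15 mM and for glucose without pyruvate, and 2 passed 2-fold in the last. This setting adds Cox8b and Cox8c, at intensities of only 2.53 to 6.66 and 2.23 to 3.38. Under the main setting, 2.56%, 6.51% and 6.89% of all genes passed 1.5-fold in these comparisons, and 2.2% passed 2-fold in the last. The shares of all genes with normexp and with no filter are not given here. The causes of the scaling differences were not tested.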
